A study of Homo sapiens with 4 samples.

Results

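Isocitrate dehydrogenase 1 (IDH1) and 7 enzyme genes with related roles were examined in UMUC3 and SW780, 2 lines of human bladder cancer cells. The 8 genes, IDH1, IDH2, IDH3A, PGD, TKT, TALDO1, ME1 and ME2, were matched by gene name in the deposited table of each line, and all 8 were found among the 30148 genes of the UMUC3 table and the 17752 genes of the SW780 table. The compared groups of each line were shSCD1, with a lentiviral knockdown of SCD1, and shNT, listed as WT. SCD1, gene symbol SCD, is the desaturase that introduces the double bond of monounsaturated fatty acids. UMUC3 cells were grown in MEM and SW780 cells in DMEM, both with fetal bovine serum, so medium and line cannot be told apart. The number of hairpins, clones and cultures behind each library is not given in the labels.

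Each of the 4 groups held 1 library, so no difference has a replicate check and no test was made; "higher" and "lower" describe these libraries. IDH1 was chosen because its ratio was opposite in the 2 lines, and the other genes were named together with it, so their ratios are descriptions too. Levels are in CPM, the read count of a gene scaled to the total over the genes of its table. Ratios are log2((shSCD1 CPM + 1)/(shNT CPM + 1)), which understates the change of low genes. Folds are plain ratios of CPM, and the 95% intervals beside them cover counting error only. The size rule asked for a log2 ratio of 1 or more, up or down, and for 1 CPM or more in one of both libraries. Column headers say only first and second library. The second was taken to be shSCD1, after the name of each table and the direction of its fold changes, and all directions within a line depend on that reading.

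NADPH is the electron donor of fatty acid and cholesterol synthesis and of the glutathione and thioredoxin systems. In the cytosol it is made by the oxidative pentose phosphate pathway, by malic enzyme 1 and by IDH1, which is also found in peroxisomes. IDH1 turns isocitrate into 2-oxoglutarate and can run in reverse, when it supplies isocitrate and then citrate for lipid synthesis. Of the 8 genes, IDH1, PGD and ME1 encode cytosolic enzymes that make NADPH. IDH2 and ME2 encode mitochondrial enzymes, IDH3A a subunit of the mitochondrial isocitrate dehydrogenase that makes NADH, and TKT and TALDO1 the cytosolic enzymes of the pentose phosphate pathway that make no NADPH themselves.

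Reads in the genes of a table totalled from 22818368 (UMUC3 shNT) to 34087871 (SW780 shNT). SCD, the targeted gene, was 4.44-fold lower in the shSCD1 library of UMUC3 and 6.43-fold lower in that of SW780. Of 11 epithelial and urothelial markers, 11 were in the SW780 table and 10 reached 1 CPM, whereas 8 were in the UMUC3 table, 4 reached 1 CPM, and KRT19 and UPK1B had 0 reads there. The summed markers stood at 528 and 251 CPM in the shNT and shSCD1 libraries of UMUC3 and at 12076 and 9972 CPM in those of SW780. By the size rule, which 4.64% of all genes with at least 1 CPM passed in UMUC3 and 2.54% in SW780, KRT7 and KRT18 were lower in UMUC3 and UPK1A in SW780. Of 7 mesenchymal markers, VIM, CDH2 and FN1 were higher by that rule in SW780 and SNAI2 lower in UMUC3. Their sum went from 375 to 880 CPM in SW780 and from 3141 to 2577 CPM in UMUC3. FN1 made up most of the SW780 sum (280 and 734 CPM) and VIM most of the UMUC3 sum (2794 and 2254 CPM). In SW780, 5 of these markers reached 1 CPM, with 4 ratios above 0 and 1 below. SNAI2 was at 0.05 and ZEB2 at −0.31 there, VIM went from 21 to 281 reads, and ZEB1 and TWIST1 stayed below 1 CPM. The sums of fibroblast and endothelial markers were 2.02 and 0.707 CPM in UMUC3 and 44.3 and 52.3 CPM in SW780, with 3 and 2 markers at 0 in both libraries of the line. Of 5 blood cell markers, CD68 alone reached 1 CPM in either line, and it stood at 67.0 and 47.5 CPM in UMUC3 and at 17.4 and 12.6 CPM in SW780. The part of these markers in the ratios below was not tested.

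The first question was how each enzyme gene differed between the shSCD1 and the shNT library of each line. IDH1 was higher in UMUC3 and lower in SW780, and it alone of the 8 passed the size rule, in both lines. Among all genes with at least 1 CPM, 4.64% of 14063 passed it in UMUC3 (2.47% higher, 2.18% lower) and 2.54% of 12880 in SW780 (1.48% higher, 1.06% lower). IDH1 was chosen on these contrasts, so nothing is read from this. IDH2 was higher in SW780 without passing the rule, and the other 6 genes had log2 ratios between −0.49 and 0.23.

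IDH1 (ENSG00000138413) lies on chromosome 2 from 208236227 to 208266074 on the minus strand, by GENCODE 29 on GRCh38, as for all positions of genes given here. The antisense gene IDH1-AS1 overlaps 1.99% of its exonic bases. IDH1 stood at 22.3 CPM in UMUC3 shNT, 67.1 CPM in UMUC3 shSCD1, 320.03 CPM in SW780 shNT and 68.5 CPM in SW780 shSCD1. The SW780 control library was far above the other 3, the UMUC3 control library was the lowest, and the shSCD1 libraries of the 2 lines stood close together. From 509 reads in shNT and 2184 in shSCD1, the UMUC3 level was 3.01-fold higher (2.73 to 3.32), with a log2 ratio of 1.55. From 10909 and 1751 reads, the SW780 level was 4.67-fold lower (4.44 to 4.91), with a log2 ratio of −2.21. The UMUC3 ratio ranked 65 from the highest of 14063 genes and the SW780 ratio 15 from the lowest of 12880. For IDH1 the authors' deposited tables have log2 fold changes of 1.51 (UMUC3) and −2.22 (SW780).

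**Figure D1:**
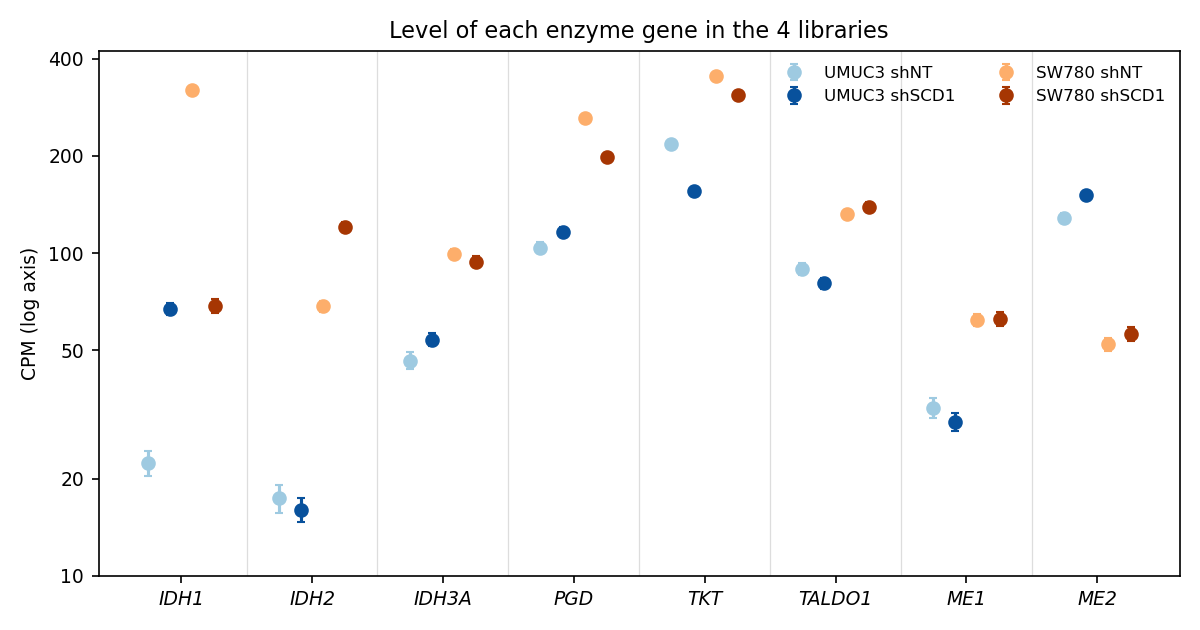
CPM (log axis) of the 8 enzyme genes in the 4 libraries, 1 point per library, with exact 95% Poisson intervals of the read count as bars (counting error only). IDH1 went from 22.3 to 67.1 CPM in UMUC3 and from 320.03 to 68.5 CPM in SW780, while the pairs of points of the same line lay closer together for the other 7 genes.

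The RefSeq promoter set (GRCh38.p14) held 9 windows for the 8 genes, of which IDH1 has 2 for its 2 RefSeq start sites. Both sites (208255071 and 208254458) lie inside the gene as GENCODE 29 draws it, which starts at 208266074. The 2 IDH1 windows, named upstream and downstream after their order, are thus not the sequence in front of that GENCODE start. The windows of IDH1, PGD and ME1 are shown because these 3 genes encode the cytosolic NADPH-making enzymes among the 8, and because IDH1 differed by size in both lines where PGD and ME1 did not. Each sequence begins 250 bases before the RefSeq start and ends before the first exon base of a protein-coding gene in GENCODE 29. It is written 5′ to 3′ on the strand of the gene, and capitals mark matches, on either strand, to the core of the antioxidant response element (TGACNNNGC, the site of NRF2), the CCAAT box (CCAAT) and the GC box (GGGCGG).
IDH1, upstream start, chr2:208255134-208255321, minus strand: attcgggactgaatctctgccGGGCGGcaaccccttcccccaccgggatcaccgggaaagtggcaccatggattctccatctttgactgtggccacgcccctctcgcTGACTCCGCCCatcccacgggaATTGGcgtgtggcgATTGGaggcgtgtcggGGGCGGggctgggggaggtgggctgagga
IDH1, downstream start, chr2:208254459-208254708, minus strand: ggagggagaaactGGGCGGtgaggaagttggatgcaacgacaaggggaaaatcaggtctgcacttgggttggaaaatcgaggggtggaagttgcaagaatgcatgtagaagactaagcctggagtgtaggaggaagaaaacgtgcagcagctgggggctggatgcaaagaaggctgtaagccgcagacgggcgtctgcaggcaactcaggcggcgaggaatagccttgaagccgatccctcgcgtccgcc
PGD, chr1:10398814-10399043, plus strand: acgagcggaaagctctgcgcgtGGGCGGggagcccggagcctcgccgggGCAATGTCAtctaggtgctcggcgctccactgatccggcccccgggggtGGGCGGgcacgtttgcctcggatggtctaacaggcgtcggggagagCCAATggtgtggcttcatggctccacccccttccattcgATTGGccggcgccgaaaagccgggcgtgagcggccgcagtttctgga
ME1, chr6:83431072-83431301, minus strand: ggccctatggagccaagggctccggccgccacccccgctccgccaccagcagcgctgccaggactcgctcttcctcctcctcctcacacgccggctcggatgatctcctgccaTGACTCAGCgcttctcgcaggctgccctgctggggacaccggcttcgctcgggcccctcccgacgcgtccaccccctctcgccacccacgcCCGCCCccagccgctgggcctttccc

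The antioxidant response element core was matched in 3 of the 9 windows over their full 250 bases, those of the upstream IDH1 start, PGD and ME1. It was held by 10.9% of all 35116 windows. In the upstream IDH1 window the match lies 143 to 135 bases before the start and overlaps a GC box at 138 to 133, and the window also holds 2 CCAAT boxes and 2 other GC boxes. The downstream IDH1 window holds 1 GC box and no match to the other motifs. Like the start sites of the other windows, that of the IDH2 window lies inside the gene as GENCODE 29 draws it, by differing distances. None of the motifs searched was matched in the IDH2 window. GC boxes were in 8 of the 9 windows and in 42.6% of all windows, and CCAAT boxes in 5 of the 9 and in 32.0%. The median window of the whole set held 58% G and C. The IDH2 window held 48.4%, the downstream IDH1 window 56.8%, and the others from 66.4% to 78.4%. These shares were not adjusted for base composition, so nothing is read from the GC box count. The E-box CACGTG, the FOXO site GTAAACA, the sterol regulatory element and the TATA box TATAAA were not matched in any of the 9 windows, against 6.34%, 2.98%, 0.125% and 10.7% of all windows. A match describes the letters of the reference and not binding. The deposited values are per gene, so which IDH1 start was used in which library was not analysed here.

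IDH2 (ENSG00000182054, chromosome 15 from 90083045 to 90102504, minus strand) encodes the mitochondrial counterpart of IDH1 that also makes NADPH, and stood at 17.4 CPM in UMUC3 shNT, 15.98 CPM in UMUC3 shSCD1, 68.3 CPM in SW780 shNT and 120.3 CPM in SW780 shSCD1. Both UMUC3 libraries were low and close together, and the SW780 shSCD1 library was the highest. In SW780 IDH2 was 1.76-fold higher (1.67 to 1.86), a log2 ratio of 0.81 at percentile 97.4 of the 12880 genes. In UMUC3 its log2 ratio was −0.11, a fold of 0.921 whose interval (0.806 to 1.05) spanned 1. The ratios of IDH1 and IDH2 thus had opposite signs within each line, although the UMUC3 interval of IDH2 held no change.

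IDH3A (ENSG00000166411, chromosome 15 from 78131498 to 78171949, plus strand) encodes a catalytic subunit of the NADH-making enzyme of the citric acid cycle, and stood at 46.4 and 53.9 CPM in the shNT and shSCD1 libraries of UMUC3 and at 99.2 and 94.1 CPM in those of SW780. Its folds were 1.16 (1.08 to 1.26) and 0.948 (0.8998 to just under 1), small in both lines. IDH3A is uncertain because CIB2 and ACSBG1, on the other strand, cover 38.9% of its exonic bases, and whether counting used strand is unknown. The reads of CIB2 were 190 and 364 (UMUC3) and 368 and 289 (SW780), and ACSBG1 had at most 22 in a library. The other subunits of the same enzyme, IDH3B and IDH3G, had log2 ratios of −0.21 and −0.50 in UMUC3 and of −0.05 and −0.10 in SW780.

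PGD (ENSG00000142657, chromosome 1 from 10398592 to 10420144, plus strand) encodes phosphogluconate dehydrogenase, which makes NADPH in the oxidative pentose phosphate pathway. It stood at 104 and 116 CPM in the shNT and shSCD1 libraries of UMUC3 and at 262 and 198 CPM in those of SW780. The SW780 libraries lay above both UMUC3 libraries. In UMUC3 shSCD1 PGD was 1.12-fold higher (1.06 to 1.18), and in SW780 shSCD1 it was 1.32-fold lower (1.27 to 1.37), the same directions as IDH1 at a much smaller size. H6PD, which starts the pathway in the endoplasmic reticulum, stood at 28.05 and 25.8 CPM in UMUC3 and at 56.7 and 84.9 CPM in SW780, where it was 1.496-fold higher (1.41 to 1.59). PGLS, the lactonase between the 2 dehydrogenase steps, had log2 ratios of −0.19 and 0.23 in UMUC3 and SW780.

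TKT (ENSG00000163931, chromosome 3 from 53224707 to 53256052, minus strand) encodes transketolase, which moves 2-carbon units between the sugars of the non-oxidative pathway. It stood at 218 and 155 CPM in UMUC3 and at 355 and 308 CPM in SW780. Both shSCD1 libraries had less TKT than their shNT library, 1.40-fold less in UMUC3 (1.35 to 1.46) and 1.15-fold less in SW780 (1.12 to 1.18). TALDO1 (ENSG00000177156, chromosome 11 from 747329 to 765024, plus strand), the transaldolase gene, stood at 89.2 and 80.5 CPM in UMUC3 and at 132 and 139 CPM in SW780, with folds of 0.902 (0.851 to 0.956) and 1.06 (1.01 to 1.10). TKT was thus the member with the largest ratio in UMUC3 after IDH1, −0.49 on the log2 scale.

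ME1 (ENSG00000065833, chromosome 6 from 83210389 to 83431071, minus strand), the cytosolic malic enzyme gene, stood at 33.2 and 29.9 CPM in UMUC3 and at 62.1 and 62.5 CPM in SW780. Its fold was 0.902 in UMUC3 (0.820 to 0.993) and 1.01 in SW780 (0.944 to 1.08), where the interval spanned no change. ME2 (ENSG00000082212, chromosome 18 from 50878734 to 50954257, plus strand), the gene of a mitochondrial malic enzyme, stood at 128 and 151 CPM in UMUC3 and at 52.2 and 56.1 CPM in SW780, with folds of 1.18 (1.12 to 1.23) and 1.08 (1.00 to 1.15). ME2 was the one member with higher levels in UMUC3 than in SW780. ME3, the other mitochondrial malic enzyme, had log2 ratios of −0.04 and 0.23.

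Counting over the members, 4 of 8 log2 ratios were above 0 in UMUC3 and 4 of 8 in SW780, where 54.3% and 48.5% of all genes with at least 1 CPM were (45.7% and 51.5% were below 0). The median over the 8 was 0.02 in UMUC3 and −0.03 in SW780, beside 0.04 and −0.01 over all such genes. The authors' deposited tables give a GFOLD value, a log2 fold change shrunk by counting error, above 0 to 3 and below 0 to 3 of the 8 members in UMUC3, and above 0 to 2 and below 0 to 3 in SW780. Of all genes with at least 1 CPM, the authors' deposited tables put 25.8% above and 34.9% below 0 in UMUC3 (60.7% in all), and 25.7% and 26% in SW780 (51.8% in all). With 8 members, these counts do not stand apart from those shares.

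The second question was how the lines differed in their responses. The log2 ratio of IDH1 in UMUC3 minus that in SW780 was 3.75, the fourth highest of the 11152 genes with at least 1 CPM in both lines, whose median difference was 0.02. IDH2 had a difference of −0.92, at percentile 4.16, and PGD of 0.56, at percentile 88.7. The other 5 members lay between −0.28 and 0.29, inside or close to the middle range of all genes (−0.25 to 0.30 from the lower to the upper quartile). By the size rule 0.0538% of the 11152 genes, 6 in number, were higher in UMUC3 and lower in SW780, and 0.152% were opposite in either order. The reverse order held for 0.0986%, 0.188% were lower in both lines and 0.0359% higher in both, with no member among them. Beside IDH1, the genes higher in UMUC3 and lower in SW780 were RAB4B-EGLN2, POC1B-GALNT4, SHH, ST6GALNAC6 and TREX2. Of these 5, SHH shares no exonic base with another gene. The other 4 share from 52.1% to 100% of theirs, so reads of neighbouring models cannot be told apart there. IDH1 had the highest level of the 6, and the other 5 stood at 16.4 CPM or less in every library.

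**Figure D2:**
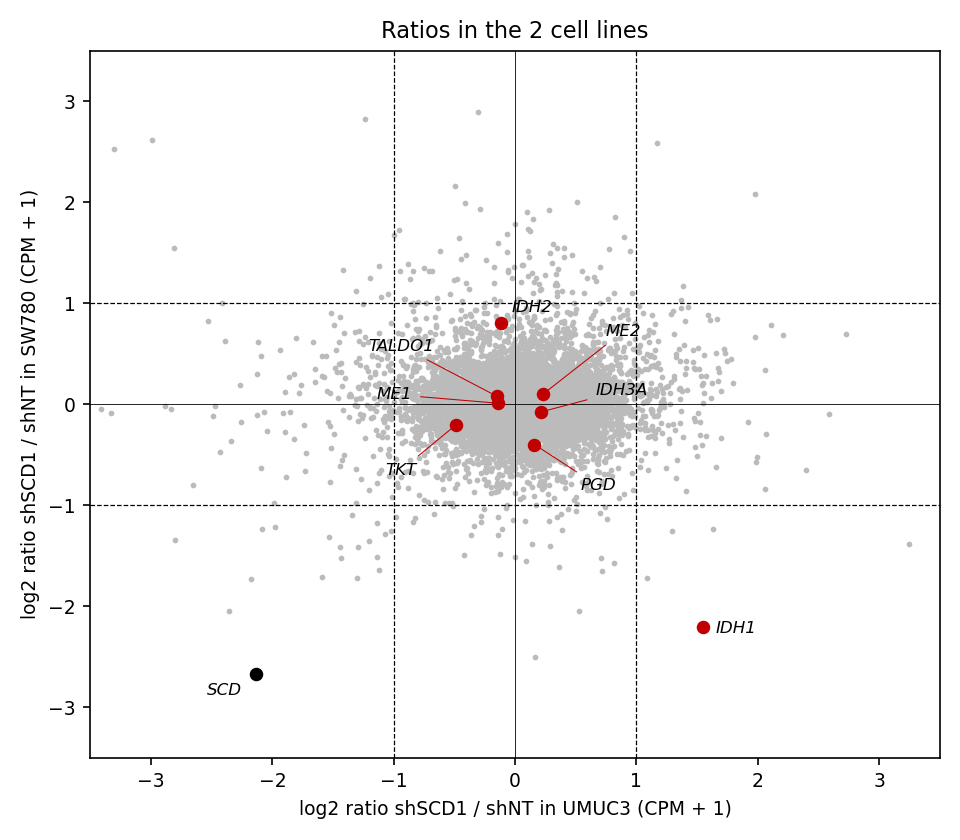
Log2 ratio of shSCD1 over shNT (CPM + 1) in UMUC3 (horizontal) against SW780 (vertical), 1 point per gene with at least 1 CPM in both lines (11152 genes, 11 of them outside the axes), with the 8 enzyme genes in red, SCD in black and dashed lines at a size of 1. IDH1 stands alone at 1.55 and −2.21, and the other 7 lie within the dashed square.

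Levels were then set across the lines over the 15415 genes that both tables hold, with totals over those genes alone; the tables were scaled separately, so these comparisons between lines carry that limit. The IDH1 level was 14.2-fold higher in SW780 than in UMUC3 between the shNT libraries (13.0 to 15.5), at 326 and 23.0 CPM. Between the shSCD1 libraries it was 1.01-fold higher (0.943 to 1.07), at 69.6 and 69.3 CPM, a difference within counting error. For IDH2 the gap between the lines was wider in the shSCD1 libraries, 7.41-fold (6.75 to 8.15) against 3.89-fold (3.49 to 4.34) in the shNT libraries.

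Among the remaining members the shNT library of SW780 stood above that of UMUC3 by 2.49-fold for PGD (2.37 to 2.60), 2.11-fold for IDH3A (1.97 to 2.27) and 1.85-fold for ME1 (1.70 to 2.01). TKT followed at 1.61-fold (1.56 to 1.66) and TALDO1 at 1.46-fold (1.38 to 1.54). ME2 was 2.49-fold lower in SW780 (2.35 to 2.64). Across all 4 libraries the highest level was 14.2 times the lowest for IDH1 and 7.41 times for IDH2. The other 6 genes spanned from 1.70 times (TALDO1) to 2.93 times (ME2).

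Levels of different genes were compared per length, as CPM per kb of exon, with the union of all exons of a gene as its length. On this scale IDH1 was the lowest of the 8 in UMUC3 shNT at 4.72 and the fourth highest in UMUC3 shSCD1 at 14.2. In SW780 it was the second highest in shNT at 67.8 and the sixth in shSCD1 at 14.5. PGD was the highest in every library, from 35.1 in UMUC3 shNT to 88.3 in SW780 shNT. ME2 was the lowest in both SW780 libraries, at 3.21 and 3.46. These orders depended on the length used. With the longest transcript, IDH1 ranked 7 in UMUC3 shNT (9.14, above IDH2 at 6.44) and 3 in the shSCD1 library of that line (27.5). Its SW780 ranks were then 2 in shNT (131) and 5 in shSCD1 (28.1). PGD was then second to TALDO1 in UMUC3 shNT (55.2 and 66.3) and highest in the other 3 libraries, and ME2 remained lowest in both SW780 libraries. Neighbours in the order by union of exons that counting intervals did not separate were IDH2 and IDH3A in UMUC3 shNT (6.17 and 6.79), IDH1 and IDH3A in SW780 shSCD1 (14.5 and 13.8) and ME2 and ME1 in UMUC3 shSCD1 (9.29 and 8.88).

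The levels of the 2 NADPH-making isocitrate dehydrogenases are set side by side next. IDH1 was chosen for its opposite ratios, which fix most of the values below and the direction of each change in them, so they are a description and no further finding. In UMUC3 the level per length of IDH1 was 0.766 times that of IDH2 in shNT and 2.503 times in shSCD1, and in SW780 it was 2.79 times in shNT and 0.340 times in shSCD1. With the longest transcript as the length the 4 values were 1.42, 4.64, 5.17 and 0.629, so in UMUC3 shNT which of the 2 genes was higher depended on the length used. The summed level of IDH1 and IDH2 per length went from 10.9 to 19.9 in UMUC3 and from 92.1 to 57.3 in SW780. IDH1 made up 9.52% of the summed level of IDH1, PGD and ME1 in UMUC3 shNT and 22.8% in shSCD1, and 38.9% and 14.5% in SW780. The sum of the 3 went from 49.6 to 62.3 in UMUC3 and from 174 to 99.9 in SW780.

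**Figure D3:**
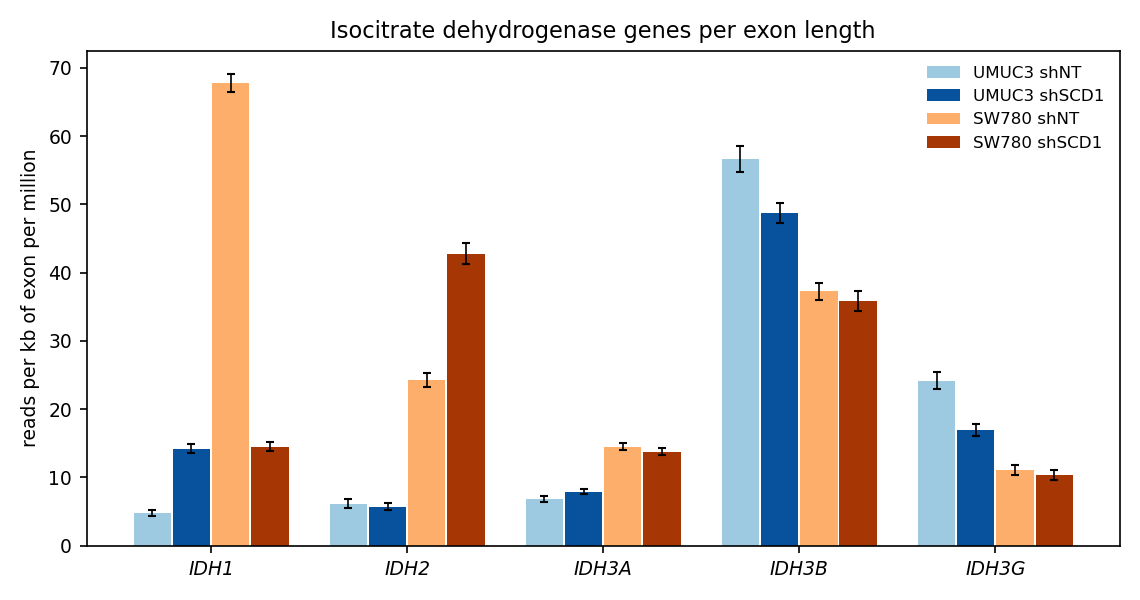
Level per length (CPM per kb of exon, union of exons) of the 5 isocitrate dehydrogenase genes in the 4 libraries, as bars from 0 with exact 95% Poisson intervals (counting error only). IDH1 stands at 67.8 and 14.5 in SW780 and at 4.72 and 14.2 in UMUC3, and IDH2 stands at 24.3 and 42.7 in SW780.

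The third question was whether genes of the surrounding pathways differed alongside. Outside the 8 members, 14 pathway lists held 108 genes that reached 1 CPM in UMUC3 and 111 that did in SW780. Of these 1 passed the size rule in UMUC3 and 0 in SW780, beside 4.64% and 2.54% of all genes. The one was ALDH1L2, a mitochondrial enzyme that makes NADPH from formyl-tetrahydrofolate. It had 16 and 103 reads in the shNT and shSCD1 libraries of UMUC3 (0.701 and 3.17 CPM), 4.51-fold higher (2.65 to 8.19), and 12 and 7 reads in SW780.

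The counts and medians of single lists include the members in them. These are PGD (oxidative pentose phosphate), ME1 and ME2 (malic enzymes), and TKT and TALDO1 (non-oxidative pentose phosphate). Of all genes with at least 1 CPM, 54.3% were above 0 in UMUC3 and 48.5% in SW780. The 4 oxidative pentose phosphate genes had 1 ratio above 0 in UMUC3 (median −0.16) and 2 in SW780 (median −0.02), and the 3 malic enzymes 1 (−0.04) and 3 (0.10). Of 7 one-carbon NADPH genes that reached 1 CPM, 4 were above 0 in UMUC3 (median 0.01, with a sign that turned under some settings) and 2 in SW780 (−0.11). The NADP supply list had 2 of 6 above 0 in UMUC3 (−0.33) and 3 of 7 in SW780 (−0.08).

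Among the other one-carbon NADPH enzymes, MTHFD2 and MTHFD1 encode methylene-tetrahydrofolate dehydrogenases of mitochondria and cytosol, of which the first uses mainly NAD and the second NADP. They had log2 ratios of −0.03 and −0.03 in UMUC3 and of 0.15 and −0.08 in SW780. ALDH1L1, the cytosolic form of ALDH1L2, had 0 reads in both UMUC3 libraries and stood at 233 and 177 CPM in SW780. Of the genes that supply NADP, NADK, the cytosolic NAD kinase, had log2 ratios of −0.35 and 0.12, and NADK2, the mitochondrial one, of 0.01 and −0.57. NNT, the mitochondrial transhydrogenase, had ratios of 0.11 and 0.00. The non-oxidative pentose phosphate list had 3 of 8 ratios above 0 in each line and medians of −0.17 (UMUC3) and −0.04 (SW780). There the ribose kinase gene RBKS was the lowest in UMUC3 (−0.91, from 5.26 to 2.34 CPM) and PRPS1, which makes phosphoribosyl pyrophosphate, followed at −0.62.

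Of 16 citric acid cycle genes, 7 were above 0 and 9 below in UMUC3, and 1 was above and 15 below in SW780, where 51.5% of all genes were below 0. The medians were −0.01 and −0.15, and with the authors' GFOLD −0.005 and −0.03. None of the 16 passed the size rule in either line. DLST, a subunit of the oxoglutarate dehydrogenase complex that uses the product of IDH2 and IDH3, was the highest in UMUC3 at 0.79 (from 104 to 180 CPM), and ACO1, the cytosolic aconitase that interconverts citrate and isocitrate, stood at −0.15 and −0.30. Of 9 genes from glutamine to 2-oxoglutarate, 7 were above 0 in UMUC3, where 54.3% of all genes were, with a median of 0.22. In SW780, 8 were below 0, with a median of −0.23. With the authors' GFOLD these medians were 0.03 and 0. PSAT1 had the highest ratio in UMUC3 (0.48) and SLC1A5, the glutamine transporter, the lowest in SW780 (−0.44). All 7 genes from citrate to acyl-CoA were above 0 in UMUC3, with FASN highest at 0.50, but the fold intervals of ACSS2 (0.918 to 1.15) and MLYCD (0.750 to 1.48) spanned 1. In SW780, 5 of 7 were below 0, with FASN and ACSS2 lowest at −0.28. The medians were 0.17 and −0.04, and with the authors' GFOLD 0 in both lines. None of these genes passed the size rule.

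The 8 mitochondrial carriers had medians of −0.05 and −0.09, with SLC25A1, the citrate carrier, at −0.12 and −0.03. Of 12 and 13 measured NADPH-using reductases, 6 were below 0 in UMUC3 and 10 in SW780, where 45.7% and 51.5% of all genes were. The medians were 0.05 and −0.10, and the sign in UMUC3 turned under some settings. AKR1C1, an aldo-keto reductase, had the lowest ratio in SW780, −0.92, and went from 669 to 352 CPM, while in UMUC3 it had 3 and 0 reads. NQO1 had log2 ratios of −0.17 and −0.41. In the same list TXNRD1 had ratios of −0.34 and −0.02, and GSR of 0.19 and −0.45. Of 11 peroxisomal genes 9 were below 0 in UMUC3 and 10 in SW780, beside the same shares of all genes, with medians of −0.24 and −0.09.

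Among the 10 regulators, PPARA, a receptor that drives fatty acid oxidation, came closest to the size rule in UMUC3, at a log2 ratio of −0.999 (20.2 and 9.59 CPM), and stood at −0.08 in SW780. NFE2L2, which encodes NRF2, had ratios of −0.26 and −0.27, SREBF1 of 0.02 and −0.34 and SREBF2 of 0.03 and −0.40. FOXO1, a forkhead factor, had ratios of 0.64 and 0.03, PPARG, a receptor of fat storage, of 0.63 and −0.21, and MYC of −0.61 and −0.23. The 2-oxoglutarate dioxygenases and 2-hydroxyglutarate dehydrogenases had medians of −0.03 and −0.06, with TET2 lowest in UMUC3 (−0.73) and FTO highest in SW780 (0.60).

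**Figure D4:**
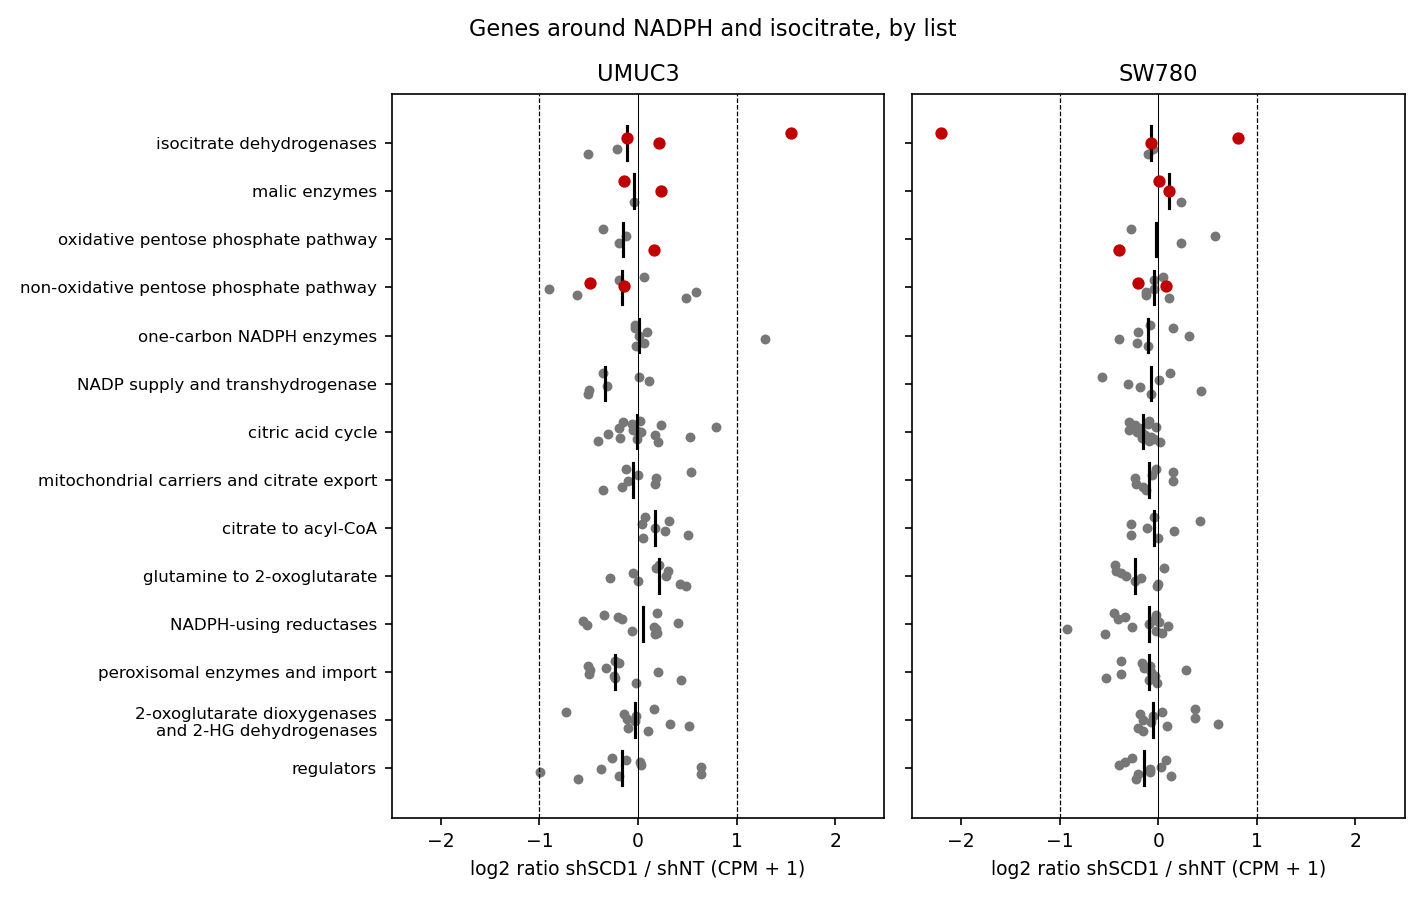
Log2 ratio of shSCD1 over shNT (CPM + 1) of every gene of 14 lists that reached 1 CPM, for UMUC3 (left) and SW780 (right), with the 8 members in red, other genes in grey, a black bar at each list's median and dashed lines at a size of 1. IDH1 lies beyond the dashed lines in both panels and ALDH1L2 at 1.29 in UMUC3, and no other gene does.

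The 6 genes with the pattern most like that of IDH1 were taken by the distance between the pairs of log2 ratios of the 2 lines. They came from 9437 other protein-coding genes that reached 5 CPM in one library or more of each line. Genes with a hyphen in the name, as in read-through models, and those with clone or open reading frame names were left out. They were BCAP29, ZDBF2, CAP1, POLR2J3, RAB27B and PPM1L, at distances from 1.00 to 1.59. None of these 6 lay close to IDH1 or passed the size rule in both lines. The limit of 5 CPM left out genes nearer to IDH1. SHH, ST6GALNAC6 and TREX2, opposite in the 2 lines by the size rule, were below 5 CPM in every library. Of these, ST6GALNAC6 had log2 ratios of 1.09 and −1.72. ZDBF2, an imprinted zinc finger gene, had log2 ratios of 0.53 in UMUC3 (24.4 and 35.6 CPM) and −2.05 in SW780 (16.3 and 3.17 CPM). BCAP29 had ratios of 0.72 and −1.65. The SW780 table also lists the read-through model DUS4L-BCAP29, with 114 and 864 reads, so reads may have been divided between these models. CAP1, a regulator of actin, had ratios of 0.76 and −1.13, with 31.2% of its exonic bases shared with another gene.

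The genes around IDH1 were read for the same contrasts, in a window of 2000 kb on either side of its GENCODE start that was set after the values were seen. In this window 14 other genes had at least 1 CPM in UMUC3 and 15 in SW780, with median log2 ratios of 0.06 and 0.02. PIKFYVE, which encodes a phosphoinositide kinase, starts on the other strand at −0.193 kb from that IDH1 start, counted in the direction of IDH1 transcription. It had ratios of 0.02 and −0.17. That IDH1 start, at 208266074, is neither of the RefSeq starts (208255071 and 208254458), so PIKFYVE does not start beside the promoter windows shown. IDH1-AS1, which starts 10.8 kb downstream of the GENCODE start of IDH1, had 8 and 7 reads in UMUC3. By the size rule ADAM23 was higher in UMUC3 (1.57), 1823 kb downstream, and ZDBF2 was lower in SW780 (−2.05), 1991 kb downstream. Beside IDH1, no other gene of the window passed in either line. ZDBF2 is the gene already named among those with the pattern most like that of IDH1, and it lies near the window's edge. The window was set with its values known, so its place there is no separate finding. Of all genes with at least 1 CPM, 4.64% passed in UMUC3 and 2.54% in SW780. Whether 1 of 14 and 1 of 15 differ from these shares was not tested.

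**Figure D5:**
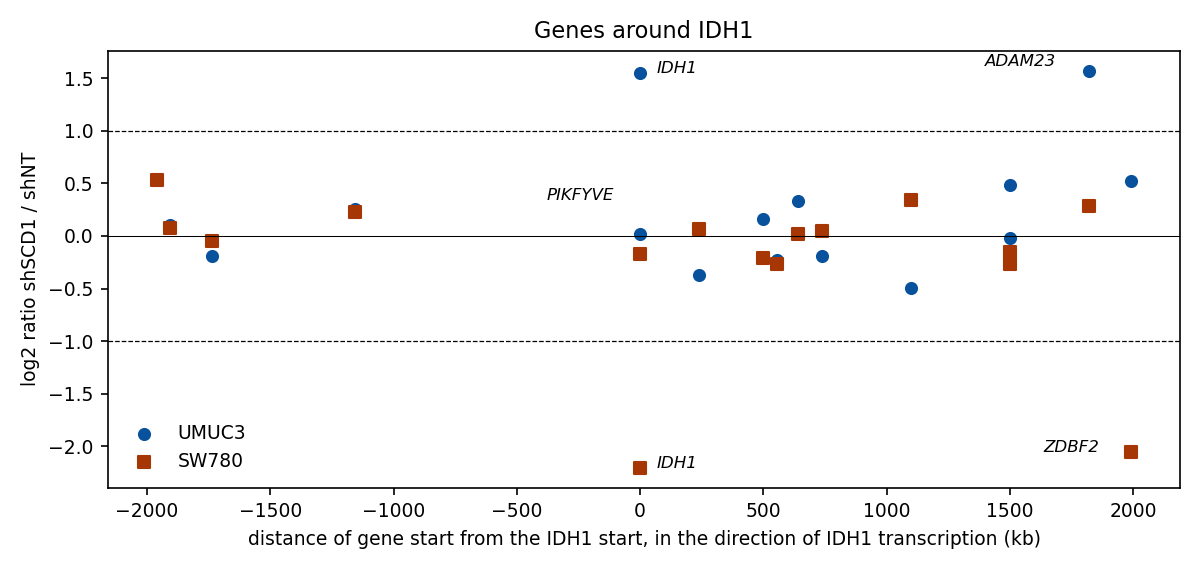
Log2 ratio of shSCD1 over shNT of the genes with at least 1 CPM within 2000 kb of the IDH1 start, by distance of their GENCODE start from that of IDH1 along the direction of IDH1 transcription (kb), for UMUC3 (circles) and SW780 (squares). IDH1 is at 0 by its GENCODE start, which is neither of its RefSeq starts, and PIKFYVE, at −0.193, lies at nearly the same place. Beside IDH1, ADAM23 at 1.57 in UMUC3 and ZDBF2 at −2.05 in SW780 lie past the dashed lines at a size of 1.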

How the data were processed

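TruSeq libraries of UMUC3 and SW780 RNA, 1 per group, were sequenced on a NovaSeq, per the labels' protocols. Per the submitters' processing notes, hg38 was the build, and aligner, counter, annotation release and strand use were not given in the sources used here. For each line the authors deposited 1 table with a log2 fold change, a GFOLD value (log2) and 2 columns headed RPKM, per the file headers. The deposited signal in these columns is a read count times 1 step per column (2.19, 1.54, 1.47 and 1.96 for UMUC3 shNT and shSCD1 and SW780 shNT and shSCD1), with no gene length in it. Of values up to 20 reads, 100% lay within 0.1 reads of a whole number, so whole reads were recovered. A count of 0 allows up to 3 reads (0.131, 0.0922, 0.0880 and 0.117 CPM in that order). CPM was computed from these reads over all genes of a table.

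Ratios used a pseudocount of 1 CPM and a minimum of 1 CPM in either library. Intervals of folds came from the exact Clopper-Pearson 95% interval of the part of a gene's reads that shSCD1 held; without molecular identifiers, reads are not independent molecules. Names came from the tables or, where blank, from Ensembl gene names (99.4% and 99.9% matched). Positions and lengths came from GENCODE 29 and promoter sequences from RefSeq. Tools were Python 3.11.15, pandas 2.3.3, SciPy 1.17.1 and edgeR 4.0.16, the last for TMM scaling alone. The scripts were tested on simulated data. The members and lists were chosen with earlier results of these data known. Named were all members, genes of the isocitrate dehydrogenase, malic enzyme, pentose phosphate, one-carbon and NADP supply lists, genes of other lists past the size rule or else at either end of their list in a line, SCD and the 6 genes nearest to IDH1. SLC25A1, NQO1, TXNRD1, GSR, NFE2L2, SREBF1, PPARG, MYC and the markers named were chosen after their values were seen. So were the genes overlapping or surrounding IDH1 and IDH3A and those opposite in the lines. Some genes that this rule takes are not reported here. Alternatives were 2 pseudocounts, 3 scalings, the shared genes, 2 filters and the authors' 2 fold estimates.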

Additional observations from a re-analysis of the deposited data

Results flagged for a closer look

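The counting intervals of 4 of the 8 members lay on opposite sides of no change in the 2 lines. The share of all genes for which this held was not computed, so nothing is read from the count. The authors' GFOLD was 0 for PGD in UMUC3 and for IDH3A in SW780. It was 0.006 for IDH3A in UMUC3 and 0.007 for TALDO1 in SW780. The difference between the lines was not tested, because each group held 1 library. For IDH1 the log2 ratio in UMUC3 minus that in SW780 was 3.75, the contrast for which the gene was chosen. For PGD it was 0.56, higher in UMUC3 and lower in SW780 like IDH1. For IDH3A, which shares exonic bases with CIB2 and ACSBG1, it was 0.29. For TALDO1 it was −0.22, lower in UMUC3 and higher in SW780. Over all genes with at least 1 CPM in both lines, the quartiles of this difference between the lines were −0.25 and 0.30. The values of IDH3A and TALDO1 lay between them, and those of PGD and IDH1 above, at percentiles 88.7 and 99.96.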

How the results depend on the processing

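Under the 10 alternatives no log2 ratio of a member took the opposite sign, and no difference between the lines did. The authors' GFOLD set some of these values to 0. The 2 filters leave a gene's ratio as it is, and a changed pseudocount cannot turn its sign within a line. Those settings therefore say nothing about the signs of the ratios. IDH1 alone passed the size rule in both lines under every alternative. IDH1 moved beyond its counting interval with the authors' GFOLD (1.34 in UMUC3, −2.13 in SW780, a difference of 3.48) and in UMUC3 with a pseudocount of 5 CPM (1.40, a difference of 3.55). Counts of all genes past the size rule depended on the settings. In UMUC3, beside 347 higher and 306 lower, they were 717 and 518 with a pseudocount of 0.1 CPM, 83 and 98 with 5 CPM and 639 and 627 with the authors' log2 fold change; 190 were higher with the authors' GFOLD and 222 with a minimum of 5 CPM. With the authors' GFOLD 38.8% of the genes past the rule in UMUC3 were higher, against 53.1%. In SW780, beside 191 higher and 136 lower, they were 372 and 228, 77 and 65, and 396 and 236 under the first 3 of these settings. The cause was not tested.

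Of 280 list medians recomputed, 14 moved beyond the counting error of their genes, and the sign turned for NADPH-using reductases (from −0.06 to 0.16) and one-carbon NADPH enzymes (−0.07 to 0.01), both in UMUC3. With the longest transcript as length 26 of 32 levels per length moved. Leaving out a library was not possible with 1 per group. No paired analysis was possible because each group held 1 library and the labels give no replicate numbers.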
